A study of Mus musculus with 2 samples.

Results

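Iron recycling by macrophages of the splenic red pulp was described through 10 genes: Spic, Slc40a1, Hmox1, Blvrb, Cd163, Slc48a1, Slc11a1, Fth1, Ftl1 and Fcna. They were found by NCBI Gene ID in both deposited tables, among 23248 IDs listed in either. The set was selected on the measured leukemia-to-healthy ratios of these 2 libraries, already known when it was drawn up, so the values below are descriptions and carry no test. RNA sequencing was done on regulatory T (Treg) cells sorted as CD4+FOXP3-GFP+ from mouse spleen, with 1 library from healthy and 1 from leukemic animals. Every host had the B6.129(Cg) background with the Foxp3tm3(DTR/GFP)Ayr allele, by which cells that express Foxp3 carry the diphtheria toxin receptor and green fluorescent protein, and was 6 to 8 weeks old per the labels. The leukemia group received 800000 acute myeloid leukemia cells without irradiation, so its own blood cells were not ablated, and cells were sorted at day 18 of a disease with survival of 30 to 40 days. The healthy group received PBS. The labels do not say whether a library pooled several mice, and with no replicates no difference below has a check against animal-to-animal spread.

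Red pulp macrophages engulf aged red blood cells and return their iron to the circulation. Heme from digested hemoglobin leaves the phagolysosome, heme oxygenase opens its ring and releases the iron, and ferritin stores the metal until ferroportin exports it to plasma. The transcription factor SPIC is needed for these macrophages to form, and heme induces its gene by removing the repressor BACH1. None of this is a Treg cell function, although ferritin and several of the enzymes are made in most cell types.

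All 10 genes had reads in both libraries, and 5 of them were near 0.5 of their healthy level in the leukemia library: the regulator Spic, the exporter Slc40a1, the heme oxygenase Hmox1, the divalent metal transporter Slc11a1 and the lectin Fcna. The ferritin genes Fth1 and Ftl1, the heme transporter Slc48a1 and the biliverdin reductase Blvrb did not share that difference, and the hemoglobin receptor Cd163 lay between. Levels are in FPKM, the fragments on a transcript per kilobase and per 1000000 fragments. Differences are given as log2((FPKM leukemia + 1) / (FPKM healthy + 1)), where the added 1 understates differences of low genes. A gene was called lower at a log2 ratio of -1 or less and higher at 1 or more, a rule of size. By it 3 of the 10 were lower (Fcna, Spic and Hmox1), 0 were higher and 7 were under 2-fold. Of all 13717 genes that reached 1 FPKM in at least 1 of the libraries, 1.95% were lower and 6.55% were higher. The median log2 ratio was -0.74 over the 10 genes and 0.02 over all genes. Nearest to the limit inside it was Hmox1 at -1.08, and nearest outside were Slc11a1 at -0.98 and Slc40a1 at -0.97. In RNA of a sorted population, fewer macrophages and less of each transcript per macrophage cannot be told apart.

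Sequence before an annotated start site was taken from RefSeq (build GRCm38.p6) for 3 members with low ratios and 1 with an even ratio. Windows were matched for 7 of the 10 members; Slc40a1, Hmox1 and Slc48a1 were not matched. The 250 bases before each start were searched. A gene can have several annotated starts, and 5 of the 9 windows overlapped the annotated span of their own gene, the Fcna window and the second ones of Blvrb and Fth1 wholly and those of Slc11a1 and Cd163 in part. Capitals mark GAGGAA, the core of the PU box that SPIC and its relative PU.1 bind, searched on both strands and chosen after the windows were seen. All are printed 5′ to 3′. For Fcna (chr2:25628130-25628159, minus strand) and Slc11a1 (chr1:74375038-74375067, plus strand), members with low ratios, the 30 bases around the motif are shown. For Spic (chr10:88683024-88683273, minus strand), another with a low ratio, and Ftl1 (chr7:45459887-45460136, minus strand), with an even ratio, the whole window is shown.
Fcna: gaaGAGGAAggtagagGAGGAAGAGGAAgg
Slc11a1: agggtatccaggaGAGGAAcgaaggtcaaa
Spic: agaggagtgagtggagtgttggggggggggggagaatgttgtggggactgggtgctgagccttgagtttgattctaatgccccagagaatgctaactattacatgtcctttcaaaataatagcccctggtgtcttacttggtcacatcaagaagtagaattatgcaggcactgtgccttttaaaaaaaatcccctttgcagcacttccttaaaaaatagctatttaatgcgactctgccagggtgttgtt
Ftl1: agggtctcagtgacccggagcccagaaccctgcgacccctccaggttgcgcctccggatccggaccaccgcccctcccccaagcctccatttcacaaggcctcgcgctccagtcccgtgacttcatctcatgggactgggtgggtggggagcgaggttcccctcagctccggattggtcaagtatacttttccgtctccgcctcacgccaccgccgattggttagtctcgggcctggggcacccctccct

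Fcna held 3 GAGGAA matches, at positions -182 to -177, -169 to -164 and -163 to -158 from the start site, the last pair adjoining in 1 run of 12 bases. Slc11a1 held 1, at -152 to -147. Spic, Cd163, Ftl1 and both annotated windows of Blvrb and of Fth1 held 0. Of all 32851 windows of this length, 23.3% held the motif and 0.429% held it 3 times or more. The antioxidant response core TGACNNNGC, through which NRF2 acts and which BACH1 can occupy, was in 0 of the 9 windows of members, and in 10.2% of all windows. CAGTGN, the loop of the iron-responsive element written as DNA, occurred once each in Fcna, Slc11a1, Spic and Ftl1 and in 48.4% of all windows. That element acts in RNA, not in promoter DNA. These matches are descriptions of the letters and do not show binding.

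**Figure D1:**
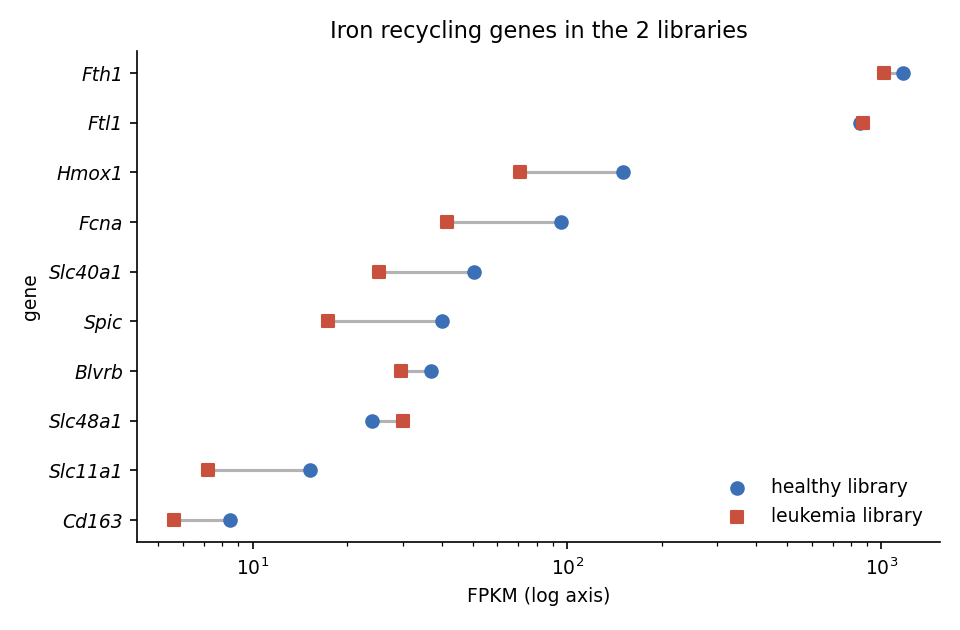
Level of each gene in FPKM on a log axis, with circles for the healthy and squares for the leukemia library. Fth1 (1173 and 1016 FPKM) and Ftl1 (851.8 and 872.7 FPKM) have small gaps, while Hmox1 (150.9 and 71.0 FPKM), Fcna (95.4 and 41.6 FPKM) and Spic (40.1 and 17.3 FPKM) have wide gaps toward lower leukemia values.

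Spic, the regulator of the lineage, stood at 40.1 FPKM on 449 estimated reads in the healthy library and at 17.3 FPKM on 193 reads in the leukemia library. Its log2 ratio was -1.17, and its read ratio, after division of both counts by their library totals, was 0.431 with an exact 95% interval of 0.363 to 0.512. Such intervals cover counting error only and compare 2 libraries, not 2 conditions. Only 181 of the 13717 genes had a lower log2 ratio than Spic. Its relative Spi1, which encodes PU.1 and is active across myeloid cells, went the other way, from 9.40 to 55.1 FPKM (log2 ratio 2.43, read ratio 5.59, 4.61 to 6.82). Another relative, Spib, was at 0.80 and 0.54 FPKM, below the 1 FPKM filter in both libraries.

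Uptake and vesicle genes of the set were split. Cd163, the receptor for hemoglobin bound to haptoglobin, had the lowest level of the 10, at 8.43 FPKM in the healthy against 5.61 FPKM in the leukemia library (339 and 225 reads). Its log2 ratio was -0.51 and its read ratio 0.666 (0.560 to 0.791). Slc11a1, the NRAMP1 transporter that moves divalent metal out of the phagosome, was at 15.2 and 7.22 FPKM, and its read ratio was 0.465 (0.381 to 0.566). Its log2 ratio of -0.98 lay just outside the 2-fold limit. The deposited gene length was shorter in the leukemia library (2335 against 2396 bases), which raises FPKM for the same reads. Slc48a1, which encodes the HRG1 heme transporter of the phagolysosome, was the 1 member whose interval lay above 1: 24.0 FPKM on 544 reads against 30.1 FPKM on 681 reads, a read ratio of 1.26 (1.12 to 1.41) and a log2 ratio of 0.32. The leukemia library was thus low for Slc11a1 but not for Slc48a1, although both proteins act at the same compartment. The broadly expressed relative Slc11a2, encoding DMT1, was at 6.92 and 5.51 FPKM (log2 ratio -0.28), so the level of Slc11a1 relative to Slc11a2 was 2.19 in the healthy against 1.31 in the leukemia library.

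Heme breakdown genes differed between the first step and the next. Hmox1, the inducible heme oxygenase, was at 150.9 FPKM on 2196 reads in the healthy library, rank 428 among all genes, and at 71.0 FPKM on 1031 reads in the leukemia library, rank 1180. Its read ratio was 0.471 (0.437 to 0.508). The constitutive oxygenase Hmox2 stayed even at 54.7 and 55.8 FPKM (log2 ratio 0.03), so that Hmox1 stood 2.76 times above Hmox2 in the healthy against 1.27 times above it in the leukemia library. Blvrb, a biliverdin reductase that acts on the product of the oxygenases, was at 36.8 and 29.6 FPKM on 278 and 223 reads, with a read ratio of 0.805 (0.672 to 0.964) and a log2 ratio of -0.30. The other biliverdin reductase gene, Blvra, was at 27.3 and 26.2 FPKM (-0.06). Both reductases and Hmox2 were therefore nearer to even than Hmox1.

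Storage and export genes also parted. Fth1, the ferritin heavy chain with the ferroxidase centre, was the most abundant member, at 1173 FPKM (rank 80) in the healthy against 1016 FPKM (rank 93) in the leukemia library. With 9678 and 8358 reads the read ratio of 0.867 was narrow (0.842 to 0.893), and the log2 ratio was -0.21. Ftl1, the light chain that helps the iron core form, was at 851.8 and 872.7 FPKM, with a log2 ratio of 0.03 and a read ratio of 1.03 (0.993 to 1.06) that holds 1. The heavy-to-light ratio was 1.38 in the healthy against 1.16 in the leukemia library. Ferritin has retrocopies, and RefSeq names 7 ferritin pseudogenes, none of which is listed in either table, so reads from such copies could have been assigned to Fth1 or Ftl1. Slc40a1, which encodes ferroportin, the iron exporter, was at 50.5 FPKM on 1537 reads and 25.2 FPKM on 756 reads, a log2 ratio of -0.97 and a read ratio of 0.494 (0.452 to 0.539). Per unit of Fth1 the exporter's level was 0.0430 in the healthy against 0.0248 in the leukemia library. Because ferritin is made in most cell types, this is a ratio of the sorted population, not of its macrophages. The 2 ferritin genes made up 82.8% of the summed FPKM of the 10 genes in the healthy against 89.2% in the leukemia library. Summed, ferritin was at 2025 and 1889 FPKM (ratio 0.933), and the other 8 members at 421.3 and 227.7 FPKM (ratio 0.541).

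Fcna, which encodes ficolin A, a secreted lectin that recognises sugars on microbes and starts the lectin pathway of complement, had the lowest log2 ratio of the 10, at -1.18. It was at 95.4 FPKM on 1114 reads in the healthy against 41.6 FPKM on 484 reads in the leukemia library (read ratio 0.436, 0.391 to 0.486). Of the 10 genes it was the only one whose whole interval lay under 0.5. Its relative Fcnb, ficolin B, which marks immature myeloid cells, was not listed for healthy mice. In the leukemia library it had 30 reads and 3.22 FPKM. That level was 10.0-fold higher when 3 reads stand in for the 0 of the healthy library. The exact interval of the Fcnb read ratio starts at 7.67. The pair of ficolin genes thus differed in opposite directions, while Fcna stayed above Fcnb in both libraries.

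**Figure D2:**
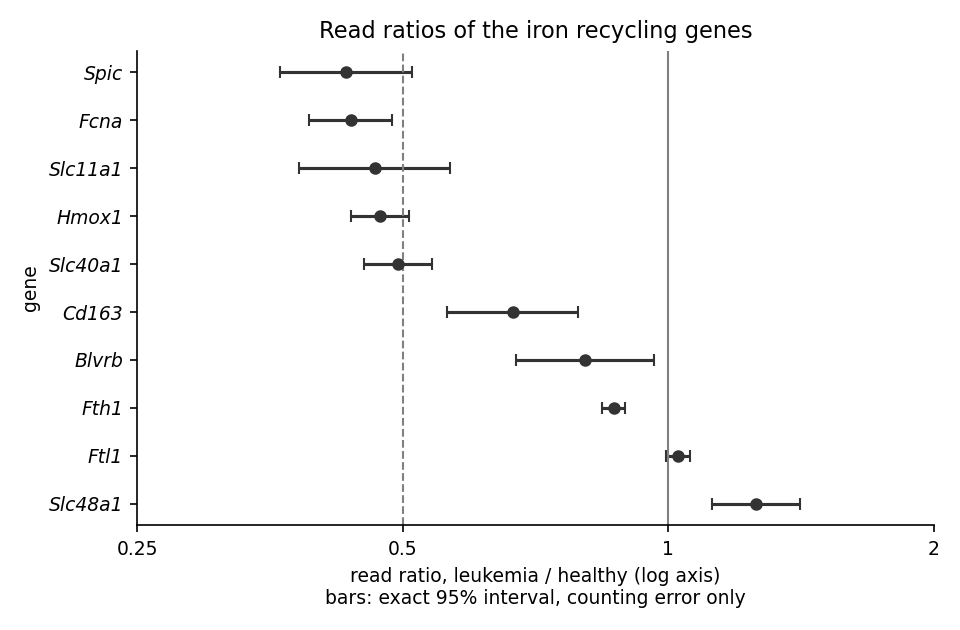
Read ratio of each gene, leukemia over healthy, on a log axis, with bars for the exact 95% interval of counting error; the solid line is 1 and the dashed line 0.5. Spic, Fcna, Slc11a1, Hmox1 and Slc40a1 lie between 0.431 and 0.494, Cd163 is at 0.666, and only Slc48a1 has its interval above 1.

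The label was checked against marker genes. Red pulp macrophage genes outside the set were present in the healthy library and lower in the leukemia library: of 10, all at 1 FPKM or more, 5 were lower, 0 higher and 9 below 0, with a median log2 ratio of -1.07. The lowest of them were the mannose receptor Mrc1 (27.5 and 9.91 FPKM, -1.39) and the integrin Itgad (22.6 and 8.82 FPKM, -1.27). Next came the adhesion molecule Vcam1 (110.8 and 46.2 FPKM, -1.24) and the complement gene C6 (13.5 and 5.44 FPKM, -1.17). Of 18 general macrophage genes 1 was lower, Apoe (356.0 and 171.2 FPKM, -1.05), 0 were higher and 16 lay below 0, with a median of -0.62. Many lay near the limit, and the lower count was 5 on FPKM rescaled to a common sum, 4 on counts scaled by edgeR's trimmed mean of M-values (TMM) and 3 with a pseudocount of 0.1 FPKM, where the red pulp count was 6 under each; C1qb was at -0.99, Mertk, a receptor for dying cells, at -0.97 and C1qc at -0.93. Marginal zone macrophage genes were scarcer, summing to 26.1 and 12.1 FPKM, with 4 of 5 at 1 FPKM or more, a median of -0.90 and 1 lower, the scavenger receptor Marco (5.58 and 2.26 FPKM, -1.01), or 3 on TMM-scaled counts. Siglec1 (-0.75), Nr1h3 (-0.82) and Timd4 (-0.98) were under 2-fold with the added 1 FPKM. Their read ratios, without it, were 0.375, 0.514 and 0.404. The summed level of the general macrophage list was 1364 FPKM in the healthy against 841.2 FPKM in the leukemia library, a ratio of 0.617, and that of the red pulp list was 353.4 and 217.9 FPKM, a ratio of 0.616. The lysosomal protein gene Cd68, chosen after its value was seen, was the 1 red pulp list gene above 0 (39.6 and 69.0 FPKM, 0.79). Without it the red pulp sum was 313.9 and 148.9 FPKM, a ratio of 0.474. The general macrophage sum was not recomputed without its own genes above 0, so 0.474 is not comparable with 0.617. Relative to the general macrophage sum, Spic had 0.699, Fcna 0.707, Hmox1 0.763, Slc11a1 0.772 and Slc40a1 0.811 of the healthy value, while Cd163 was at 1.08, Blvrb at 1.30, Fth1 at 1.40, Ftl1 at 1.66 and Slc48a1 at 2.03. The 5 members that were low on the deposited scale were thus also low against the general macrophage sum, by less. Genes of that list itself spanned 0.702 (Fcgr1, named after its value was seen) to 2.60 (Fcgr3) relative to the sum. Values like those of the 5 members thus also occurred among general macrophage genes. That sum includes the 2 genes of its list above 0, both named after their values were seen. They were Fcgr3 (23.3 and 37.4 FPKM) and Lyz2 (51.7 and 61.5 FPKM), which make values relative to the sum lower than they would be without them. Against red pulp macrophage genes they were about even: centred on that list's median, their log2 ratios were -0.11 for Fcna, -0.10 for Spic, -0.0080 for Hmox1, 0.09 for Slc11a1 and 0.10 for Slc40a1, while Cd163 was at 0.56, Blvrb at 0.76, Fth1 at 0.86, Ftl1 at 1.10 and Slc48a1 at 1.38. These 5 genes thus lay near the median of the red pulp list, whose genes ranged from -1.39 to 0.79 on the deposited scale. Its least reduced genes besides Cd68 were Cd5l at -0.38 and Pparg at -0.33, named after their values were seen. The 5 genes and the list were both chosen with these results known, and the cause was not tested.

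Markers of other cells moved as well. Treg and T cell genes, the labelled cell type, were abundant in both libraries, with Foxp3 at 104.3 and 62.7 FPKM. All 15 lay below 0 and under 2-fold (median -0.48), with summed FPKM of 3665 and 2658; Ctla4 was at -0.91 and Il2ra at -0.69. Myeloid progenitor genes were higher for 11 of 12, with summed FPKM of 53.9 and 2615, led by the granule protein genes Ctsg, Mpo, Prtn3 and Elane at log2 ratios of 7.72, 7.61, 7.33 and 6.84. Monocyte and neutrophil genes summed to 18.9 and 31.4 FPKM, with 3 of 5 higher, Cx3cr1 (1.61), Itgam (1.58) and S100a8 (1.13, on 1 and 6 reads), while Ly6g was at 0.21 and Ltf had no reads in the healthy library. Dendritic cell genes summed to 4.98 and 4.77 FPKM, with Itgax at 0.25 and Siglech at -0.18. B cell genes summed to 15.2 and 26.3 FPKM, with Cd79b at 0.84 and Cd79a at 0.24. The part of these cells in the values of the 10 genes was not tested.

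**Figure D3:**
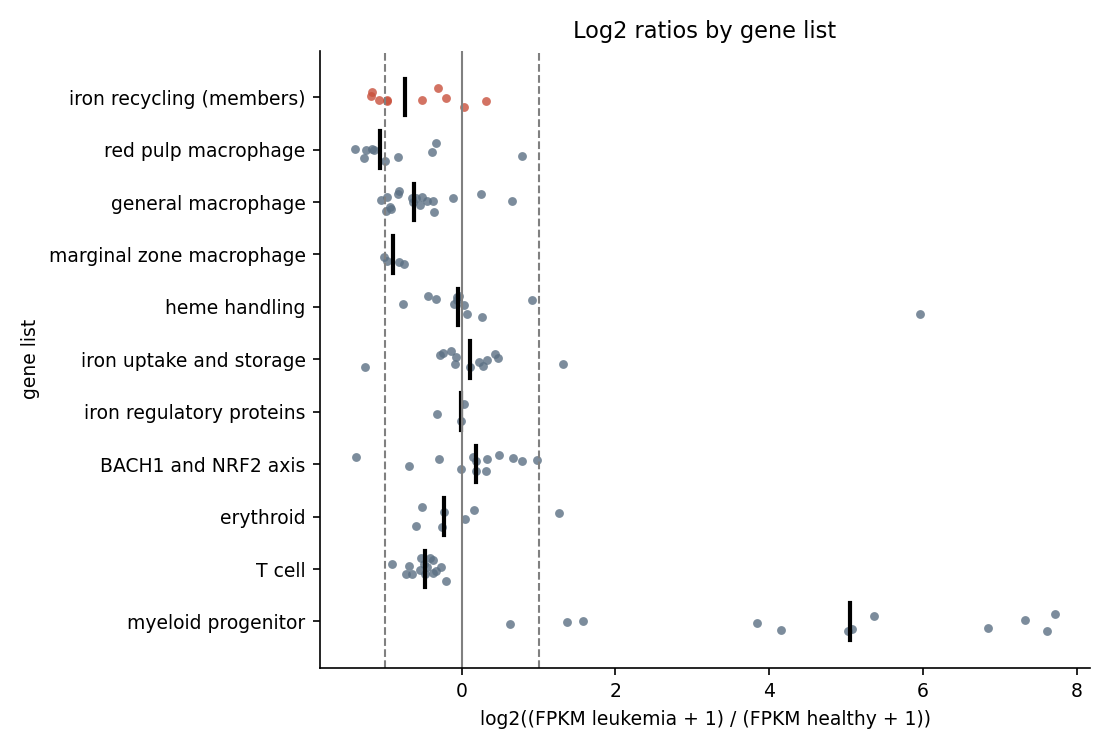
Log2 ratio of every gene at 1 FPKM or more in each list shown. A black bar marks the list's median and dashed lines mark -1 and 1. The hepcidin and export list, where only Hfe (-0.89) reached 1 FPKM, is not drawn. Nor are the lists of member relatives, monocytes and neutrophils, dendritic cells and B cells. The iron recycling genes have a median of -0.74, between red pulp (-1.07) and general macrophage genes (-0.62), while the iron uptake, heme handling and iron regulatory lists lie near 0.

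Most genes of the wider iron and heme pathway did not share the lower values of the 5 genes. Exceptions among genes at 1 FPKM or more, by read ratio, were Trf (0.413), Maff (0.317), Hfe (0.495) and Slco2b1 (0.517). Of 14 further heme handling genes, 12 reached 1 FPKM, 0 were lower and 1 was higher, with a median log2 ratio of -0.04. The higher one was Hp, the plasma haptoglobin whose hemoglobin complex CD163 binds (0.25 and 76.8 FPKM, on 3 and 927 reads). The mitochondrial porphyrin transporter gene Abcb6 was at 1.46 and 3.63 FPKM (0.91), the organic anion transporter gene Slco2b1 at 3.71 and 1.76 FPKM (-0.77), and the exporter gene Abcg2 at 3.89 and 2.60 FPKM (-0.44). Hpx, encoding the heme scavenger hemopexin, was unlisted in both.

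Of 18 iron uptake and storage genes, 13 reached 1 FPKM, with a median of 0.10. The 1 lower gene was Trf, which encodes transferrin, the iron carrier of plasma, at 107.6 FPKM on 2249 reads in the healthy against 44.4 FPKM on 925 reads in the leukemia library (log2 ratio -1.26, read ratio 0.413, 0.382 to 0.446). The 1 higher gene was the ferrireductase Steap3, at 0.88 and 3.67 FPKM (1.31, on 22 and 91 reads). Ncoa4, the receptor that carries ferritin to lysosomes, was at 30.0 and 42.0 FPKM (0.47), and its read ratio was 1.42 (1.31 to 1.55). Trf had a ratio like those of Spic and Fcna, whereas Ncoa4, whose product acts on ferritin, lay on the other side of 0.

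The genes of the iron regulatory proteins were even. Aco1 and Ireb2, which encode the iron regulatory proteins that bind ferritin, ferroportin and transferrin receptor messages, were at 8.27 and 8.22 FPKM (-0.01) and at 12.4 and 12.6 FPKM (0.02). Fbxl5, the ubiquitin ligase subunit that removes them when iron is plentiful, was at 16.9 and 13.3 FPKM (-0.32), and its read ratio was 0.784 (0.677 to 0.906). Among 10 hepcidin and export genes only the hemochromatosis gene Hfe reached 1 FPKM, at 9.32 and 4.57 FPKM (-0.89), and Hamp, encoding the hormone hepcidin that degrades ferroportin, had 1 and 2 reads. Of 15 genes of the BACH1 and NRF2 axis, which controls Hmox1, ferritin and Slc40a1, 13 reached 1 FPKM, 1 was lower and 0 higher, with a median of 0.18. The repressor gene Bach1 and the activator gene Nfe2l2, both named after their values were seen, were at 0.18 each. Of the small MAF partners, Maff was lower (8.61 and 2.71 FPKM, -1.37), Mafk was at -0.69 and Mafg at 0.98. The cystine transporter gene Slc7a11, a target of NRF2, was at 41.8 and 72.8 FPKM (0.79). Of the 13 axis genes, 4 lay below 0 and 9 above 0, and the part of the axis in the lower Hmox1 was not tested.

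**Figure D4:**
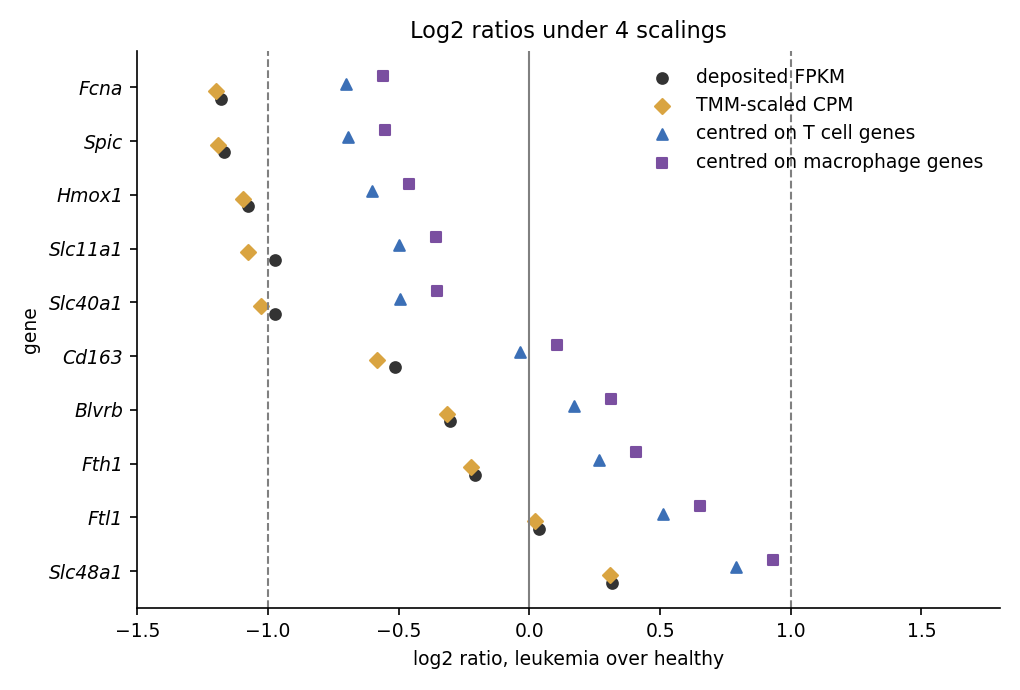
Log2 ratio of each gene under 4 scalings, with dashed lines at -1 and 1. Fcna, Spic, Hmox1, Slc11a1 and Slc40a1 lie below 0 under each of the 4. Fth1 and Blvrb are below 0 on deposited FPKM and on TMM-scaled CPM and above 0 when centred on T cell or macrophage genes.

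Directions depended on the scale for part of the set. Centring on the T cell list moved the median of all genes to 0.50 and centring on the general macrophage list moved it to 0.64, so values on those scales are relative to these shifts. Spic, Fcna and Hmox1 lay below 0 under all 8 scalings and pseudocounts tried, from -1.26 to -0.10 for Spic, -1.26 to -0.11 for Fcna and -1.16 to -0.0080 for Hmox1. Slc40a1 and Slc11a1 lay below 0 under 7 of 8 and crossed to 0.10 and 0.09 when centred on the red pulp list. Cd163 crossed 0 when centred on either macrophage list, reaching 0.56, and Blvrb and Fth1 also when centred on T cell genes. Slc48a1 lay above 0 under all 8 (0.25 to 1.38), and Ftl1 under 7, with -0.04 after rescaling FPKM to a common sum. On TMM-scaled CPM (counts per 1000000 reads), 5 of the 10 genes were lower, beside 1.71% of all genes. Counted by a read ratio of 0.5 or less, with no pseudocount, 5 of the 10 genes were lower, beside 3.74% of all genes. Centred on T cell or macrophage genes, 0 of the 10 were lower, beside 0.671% and 0.539% of all genes.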

How the data were processed

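RNA sequencing of sorted splenic Treg cells gave 1 library per group, grouped by the disease state in the labels. Bowtie2 2.2.5 and RSEM are named in the submitters' processing notes; for build, annotation and RSEM version, the sources used here name none. Per the file headers, the authors deposited an expected count per gene, estimated by RSEM and not normalized. They also deposited FPKM, per the file headers, to 2 decimals. The healthy library summed to 8929601 and the leukemia library to 8897162 estimated reads (ratio 0.996), on 21319 and 21559 listed genes. With 1 library each, precision is known only for counting.

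NCBI Gene IDs were matched to symbols in the RefSeq table of assembly GRCm38.p6, for 21713 of 23248 IDs. A gene listed in 1 table was taken as 0 in the other. Log2 ratios had a pseudocount of 1 FPKM and covered genes that reached 1 FPKM in at least 1 library. Clopper-Pearson 95% intervals of read ratios used counts rounded to whole numbers (scipy 1.17.1), and the scripts were tested on simulated data. Count scaling used TMM in edgeR 4.0.16. The 10 members and 15 further lists were chosen with earlier results of these data known. Besides the members, the text names up to 4 genes of each list and the exceptions it marks. The 4 are those with the largest absolute log2 ratio at 1 FPKM or more. Spib, Hmox2, Hpx, Hamp and Ltf were also named with their values seen, and Ahsp with its missing match seen. Some genes that this rule names are left out of the text. Alternatives were other pseudocounts, filters, scalings and centrings; the comparison of protein sequences was not run.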

Additional observations from a re-analysis of the deposited data

How the results depend on the processing

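The count of 3 lower genes was 4 with a pseudocount of 0.1 FPKM and 3 after division by the median ratio, with no filter and with a filter of 5 FPKM. It was 5 after rescaling to TPM, 5 on TMM-scaled CPM and, chosen after seeing the data, 5 at a read ratio of 0.5 or less; it was 0 when centred on T cell, general macrophage or (also chosen afterwards) red pulp macrophage genes. The median log2 ratio of the 10 genes, -0.74, was -0.79 with a pseudocount of 0.1 FPKM, -0.84 as TPM, -0.76 after median division and -0.80 on TMM-scaled CPM. It was -0.27, -0.13 and 0.33 when centred on T cell, general macrophage and red pulp macrophage genes, and unchanged by the filters. Centring on red pulp genes, which put the median of all genes at 1.09, changed the sign of 29 of the 62 genes named by the rule. Among them Apoe (0.016), Marco (0.055), Aco1 (1.06) and Blvra (1.01) were at 2-fold on 1 of the scales, and the others on neither. Of all genes, 898 were higher and 267 lower as deposited, 2147 and 92 centred on T cell genes, 3043 and 74 on general macrophage genes and 8167 and 33 on red pulp genes. The lower count was 493 with a pseudocount of 0.1 FPKM, 414 as TPM and 135 with a filter of 5 FPKM. These shifts follow from the constant that each centring subtracts; for the other settings the cause was not tested. No paired analysis was possible because each group has 1 library. Depth limits Cd163, Slc11a1, Blvrb and Spic most among the 10 genes, with 151 to 449 reads.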

Other observations

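Genes of red blood cells and their precursors, the cells that red pulp macrophages take up, were mostly under 2-fold. The 4 adult globin genes, named after their values were seen, summed to 151.8 FPKM in the healthy against 144.2 FPKM in the leukemia library, a log2 difference of -0.07; reads of such near-identical genes are shared out by estimate. Of 12 erythroid genes 11 were matched and 7 reached 1 FPKM, with a median log2 ratio of -0.23, against 0.02 for all genes. Klf1, an erythroid transcription factor, was the 1 higher gene, at 0.15 and 1.76 FPKM on 2 and 24 reads, a read ratio of 12.0 (2.99 to 105). Gata1, a factor of erythroid and several myeloid lineages, had 243 and 163 reads (-0.52), the heme synthesis gene Alas2 was at 1.56 and 0.69 FPKM (-0.60), and Hbb-bt at -0.26. Ahsp, which encodes the chaperone of alpha globin, had no match by symbol, so whether it was listed in either library is not known.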
